A study of Glycine max with 9 samples.

Results

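The genes described here are the florigen genes of the FLOWERING LOCUS T (FT) family of soybean (Glycine max) and the E1 repressors that act above them in the leaf. They were chosen by identifier, as a list of 10: E1, E1La and E1Lb, and 7 FT family genes (FT1a, FT1b, FT2a, FT2b, FT3a, FT4 and FT5a). The expression table holds 8 of these 10 among its 49777 genes, and FT2b and FT3a were not analysed here. The rule names identifiers and uses no measured value. The gene names came with the list, because the table gives identifiers without names, and they could not be checked against it.

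Leaf RNA was sequenced from 2-week-old seedlings of the cultivar Williams 82, which had grown at 20 °C with 18 h of light and 6 h of darkness and were then held at 4 °C. Unifoliate leaves were taken after 0, 1 and 24 h in the cold, in 3 replicate libraries per time, each made from at least 6 plants. The light cycle went on during the cold, which began 4 h into the light period. The 0 h and 24 h leaves therefore shared an hour of the cycle, while the 1 h leaves were taken 5 h into the light, and no unchilled leaves of that hour or of the later day were analysed here. Nothing in the labels says whether replicates were grown apart, so p-values may measure technical spread. No marker of leaf tissue was checked, for want of gene names.

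Soybean flowers in response to short days. FT proteins are made in the leaf and move to the shoot apex, where they act with the bZIP protein FD to switch on floral genes. FT2a and FT5a are the florigens that promote flowering in soybean, whereas FT1a and FT4 have been described as inhibitors of flowering. E1, a legume-specific protein with a B3-like domain, is expressed under long days through phytochrome A and lowers FT2a and FT5a, and its homologues E1La and E1Lb act in the same direction.

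Values are normalized read counts, which the authors rounded to whole numbers. Library totals were 71.0 to 81.9 M. The spacing of low values gave an estimated worth of 1 read of 1.17 to 4.15 normalized counts, and from this an estimated depth of 18.0 to 67.8 M reads, lowest in replicate 2 at 0 h and highest in replicate 2 at 24 h. The replicate numbers differed more than the times did, and replicate 3 stood apart at all 3 times. Values are therefore listed by replicate number, and each test was run with and without the replicate number as a block. The SE and intervals of the tests are those with the block unless stated, and for these genes they were wider without it. Normalized counts are not per gene length, so levels are compared between libraries and not between genes. In leaf RNA a lower level can come from fewer expressing cells or from less RNA per cell, which cannot be told apart.

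The repressor genes E1, E1La and E1Lb were present in all 9 libraries at all times in the cold, and none of the 3 passed the test of a change at 1 h or 24 h. E1 (Glyma06g23026) had 189, 118 and 75 normalized counts before chilling (replicates 1, 2 and 3, in this order throughout), 146, 171 and 66 after 1 h, and 177, 207 and 65 after 24 h. Replicate 3 was the lowest at each time, and the 3 times overlapped. Its mean level was 127 ± 57.6 normalized counts before chilling, 128 ± 54.8 after 1 h and 149.7 ± 74.8 after 24 h (SD, n = 3). Its log2 change at 24 h was 0.17 ± 0.23 (limma SE with the replicate block, n = 3 per group, adjusted p = 0.745), and within replicates 1, 2 and 3 it was -0.09, 0.81 and -0.20. Only replicate 2 was higher in the cold, at both times. The 0 h value of that replicate rests on about 28.5 reads, the fewest behind any value of E1, and counting alone gives its change at 24 h an SE of 0.29.

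E1La (Glyma04g24640), the homologue of E1, had 298, 293 and 84 normalized counts before chilling. After 1 h the values were 285, 230 and 66, and after 24 h 348, 309 and 65. It was lower at 1 h than at 0 h in 3 of 3 replicates, with log2 changes of -0.06, -0.35 and -0.34, whose SE from counting alone was 0.19, 0.23 and 0.28. It was the only one of the 7 genes tested to be lower in 3 of 3 replicates at 1 h, a pattern that 21.6% of all genes tested showed. The log2 change was -0.25 ± 0.17 at 1 h (limma with the block, adjusted p = 0.438) and -0.02 ± 0.17 at 24 h (adjusted p = 0.963). At 24 h replicates 1 and 2 lay above their 0 h values and replicate 3 below.

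E1Lb (Glyma18g22670), the other homologue, had 189, 160 and 137 normalized counts before chilling, 165, 256 and 109 after 1 h, and 203, 171 and 121 after 24 h. Its highest and lowest values were both at 1 h, in replicates 2 and 3. The log2 change was 0.05 ± 0.21 at 1 h and 0.01 ± 0.21 at 24 h (limma with the block, adjusted p = 0.927 and 0.991). The 95% intervals with the block put the level at 24 h at 0.725 to 1.39 times that at 0 h for E1Lb, 0.764 to 1.27 times for E1La and 0.793 to 1.6 times for E1. Without the block they were 0.555 to 1.82, 0.24 to 4.05 and 0.432 to 2.93 times. The identifiers of E1La and E1Lb carry different chromosome numbers, whereas the RefSeq table of assembly Glycine_max v4.0 lists genes of both names on the same chromosome. The 3 genes are close relatives, and how reads common to them were counted is not given in the sources used here.

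Their summed level does not depend on how shared reads were split among them, provided that each such read was counted once. Whether it was is not known. E1, E1La and E1Lb together had 676, 571 and 296 normalized counts before chilling, 596, 657 and 241 after 1 h, and 728, 687 and 251 after 24 h. The sum was 514 ± 196, 498 ± 225 and 555 ± 264 at the 3 times (SD, n = 3). Within replicates the log2 change of the sum was -0.18, 0.20 and -0.30 at 1 h and 0.11, 0.27 and -0.24 at 24 h, so the replicates did not move in the same direction at either time. The sum was formed after the values were seen and was not tested.

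**Figure D1:**
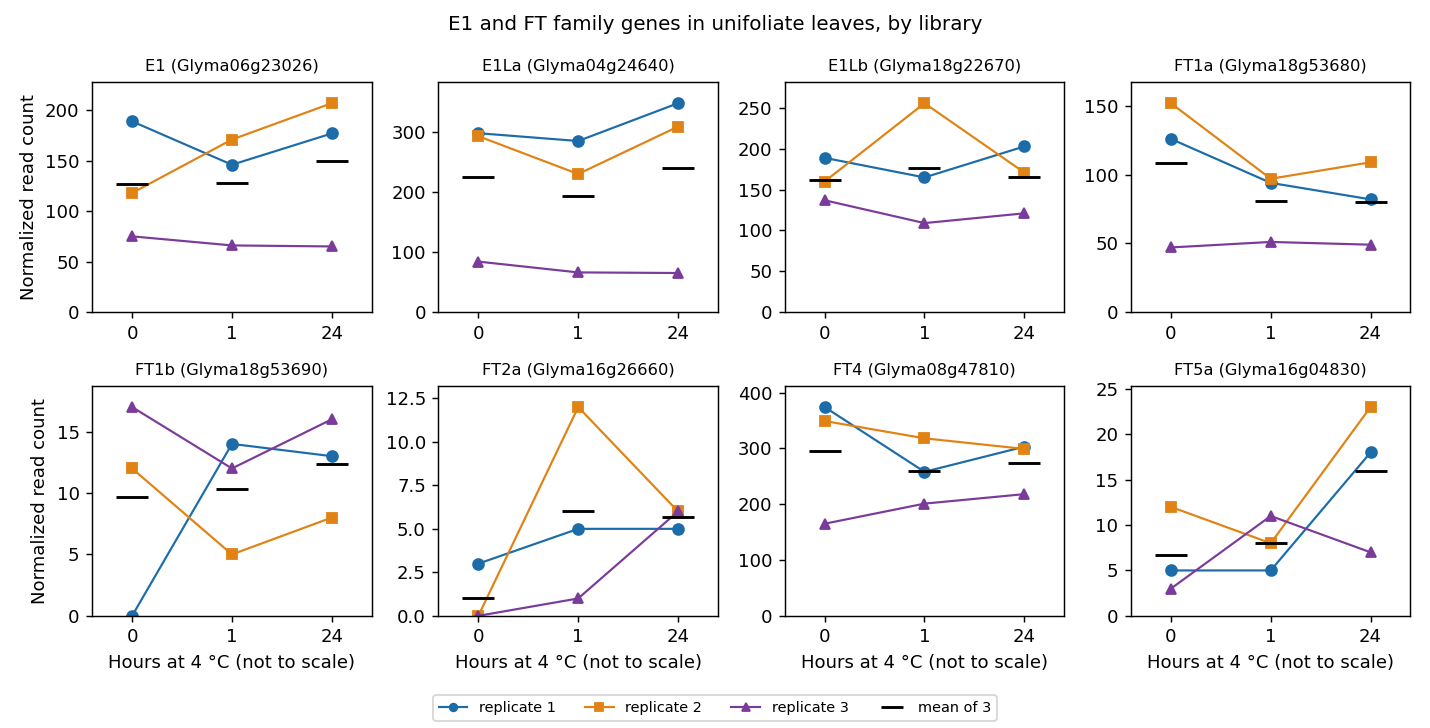
Normalized read count (y axis, from 0, with its own scale in each panel) of the 8 genes after 0, 1 and 24 h at 4 °C (x axis, not to scale). Lines join libraries with the same replicate number and black bars are means of 3; replicate 3 is the lowest at every time for E1, E1La, E1Lb, FT1a and FT4, and FT2a never exceeds 12.

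FT1a and FT4, the FT family genes described as flowering inhibitors, had at least 29.6 estimated reads in every library, and neither passed the test at 1 h or 24 h. FT4 (Glyma08g47810) had 374, 349 and 165 normalized counts before chilling, 258, 318 and 201 after 1 h, and 303, 299 and 218 after 24 h. Replicates 1 and 2 lay below their 0 h values at both times in the cold and replicate 3 above, so the 3 libraries were closer together in the cold. The mean was 296 ± 114 before chilling, 259 ± 58.5 after 1 h and 273 ± 48.0 after 24 h (SD, n = 3). The log2 change of FT4 was -0.13 ± 0.17 at 1 h (limma with the block, adjusted p = 0.727) and -0.04 ± 0.17 at 24 h (adjusted p = 0.927), and the 95% interval at 24 h ran from 0.748 to 1.26 times the 0 h level. FT4 had 84.1 to 256 estimated reads per library, the largest sum of the 8 genes.

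FT1a (Glyma18g53680) had 126, 152 and 47 normalized counts before chilling. It had 94, 97 and 51 after 1 h and 82, 109 and 49 after 24 h. Replicates 1 and 2 were lower at both times in the cold, with log2 changes of -0.42 and -0.64 at 1 h and of -0.61 and -0.48 at 24 h. Their SE from counting alone was 0.32 and 0.34 at 1 h and 0.29 and 0.28 at 24 h. Replicate 3, already low at 0 h, had log2 changes of 0.12 and 0.06, smaller than its counting SE of 0.35 and 0.37. The log2 change over the 3 replicates was -0.32 ± 0.23 at 1 h (limma with the block, adjusted p = 0.49) and -0.34 ± 0.23 at 24 h (adjusted p = 0.454). The 95% interval of the change at 24 h was -0.85 to 0.17 on the log2 scale. Both comparisons use the same 0 h libraries.

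FT1b (Glyma18g53690) lies next to FT1a, with 0 coding genes between the genes of these names in the RefSeq table, and its levels rest on few reads. It had 0, 12 and 17 normalized counts before chilling, 14, 5 and 12 after 1 h, and 13, 8 and 16 after 24 h. The highest library holds about 10.9 reads of it. Replicate 1 went from a listed 0 to 14 while replicates 2 and 3 went down, and the mean log2 change of 0.77 ± 0.93 at 1 h (limma with the block, adjusted p = 0.695) rests on that library: without replicate 1 of 0 h it was -0.70. At 24 h the change was 1.06 ± 0.93 (adjusted p = 0.584), and -0.40 without that library. Unlike FT1a, FT1b was highest in replicate 3 at 0 h and at 24 h.

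FT2a and FT5a, the florigens, had few reads in these long-day leaves. The values of both were higher after 24 h than at 0 h in 3 of 3 replicates, as in 18.7% of all genes tested. For FT5a this is a description only, since it reached the minimum mean used for the test only through its 24 h libraries. FT2a (Glyma16g26660) was listed at 3, 0 and 0 normalized counts before chilling, at 5, 12 and 1 after 1 h, and at 5, 6 and 6 after 24 h. The 0 h and 24 h values did not overlap, which was the case for 5.22% of all genes tested, and the 0 h and 1 h values did. At 1 h, too, 3 of 3 replicates were higher than at 0 h, as in 17.5% of all genes tested. FT2a was too low to be among the genes tested, and none of these shares was computed for genes at its level. The shares therefore do not say how unusual its pattern is. In reads the FT2a values are about 1 at 0 h over the 3 libraries, 7 at 1 h and 12 at 24 h. The summed estimated depths were 99.5, 111 and 165 M reads. Per M reads, the ratio to 0 h was 6.28 at 1 h (95% interval 0.806 to 283, exact binomial, counting error of the estimated reads only) and 7.24 at 24 h (1.07 to 310). These intervals pool the 3 libraries of each time and leave out the spread between replicates. They are therefore too narrow to serve as a test of a change. The 24 h libraries were also the deepest as a group, and replicate 2 at 0 h, where FT2a is listed at 0, was the shallowest library of all.

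The mean of FT2a over the 9 libraries, 4.22 normalized counts, was under the minimum of 10 used for the test. With that minimum left out, its log2 change was 2.07 at 24 h (limma with the block, adjusted p = 0.179) and 1.76 at 1 h (adjusted p = 0.253). FT2a was not called without the block either. For a single gene, an exact permutation test of 3 against 3 libraries cannot give a two-sided p below 0.1, so none was run.

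FT5a (Glyma16g04830) had 5, 12 and 3 normalized counts before chilling, 5, 8 and 11 after 1 h, and 18, 23 and 7 after 24 h. In estimated reads this is 1.99, 2.89 and 1.93 at 0 h and 11.4, 19.7 and 4.23 at 24 h. The values at 1 h lay within the range of those at 0 h, and at 24 h the groups overlapped because replicate 3 lay below replicate 2 of 0 h. Within replicates 1, 2 and 3 the log2 change at 24 h was 1.66, 0.88 and 1.00, with counting SE of 1.11, 0.91 and 1.25. All 3 replicates were higher at 24 h, as in 18.7% of all genes tested. Its log2 change was 1.18 ± 0.63 at 24 h (limma with the block, adjusted p = 0.334) and 0.35 ± 0.63 at 1 h (adjusted p = 0.807). Its mean of 10.2 normalized counts just passed the minimum, and did so only through the 24 h libraries: the group means were 6.67 at 0 h, 8 at 1 h and 16 at 24 h. A gene kept in this way had to be higher at 24 h, so its direction is given as a description.

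Across the list, 7 of the 8 genes in the table reached the minimum mean of 10 and were tested. None of the 7 was called at 1 h or 24 h, by limma at an adjusted p of 0.05, with or without the replicate block, and none had an unadjusted p under 0.05 in either model. Over all 38985 genes tested, 4.47% were called at 1 h and 5.11% at 24 h with the block, and 0% at either time without it. A count of 0 of 7 is close to these shares. The median log2 change of the 7 genes was -0.01 at 1 h and 0.01 at 24 h, beside -0.02 and -0.02 over all genes tested. Between 24 h and 1 h, 0 of 7 genes were called, as were 0% of all genes, and the log2 differences of the 7 ran from -0.04 to 0.83. What could have been seen differed greatly between genes: with the block the SE of the log2 change was 0.17 for FT4 and E1La, and 0.63 and 0.93 for FT5a and FT1b. Without the block it was 0.367 for FT4, 0.875 for E1La, 0.691 for FT5a and 1.11 for FT1b.

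**Figure D2:**
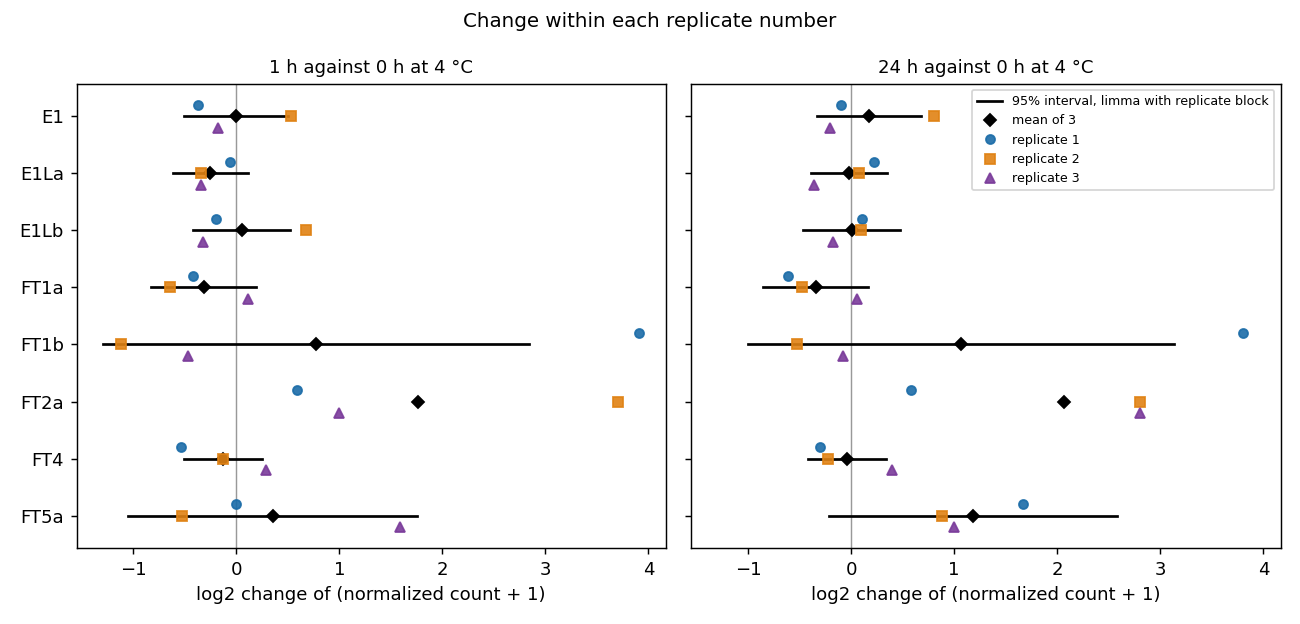
Log2 change of (normalized count + 1) from 0 h to 1 h (left) and to 24 h (right) for each gene (y axis). Colored symbols are the 3 replicates, black diamonds their mean and black lines limma's 95% interval with the replicate block (not given for FT2a, which was not tested). Every interval crosses 0. FT2a and FT5a, both with few reads, lie to the right of 0 in all 3 replicates at 24 h. For FT5a this is a description only, since it reached the minimum mean only through its 24 h libraries.

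Replicate 3 stood below the other replicates for most of these genes. In replicate 3, E1, E1La, E1Lb, FT1a and FT4 were below both other replicates at 0, 1 and 24 h, which is 5 of the 7 genes tested, and 36.9% of all genes tested showed that pattern. E1, E1La and E1Lb are close relatives that may share reads, so these genes are not separate observations. E1La averaged 310.3 ± 33.3 normalized counts in the 3 libraries of replicate 1, at 277 ± 41.8 in those of replicate 2 and at 71.7 ± 10.7 in those of replicate 3 (SD over the 3 times, which are not replicates). The log2 difference between replicate 3 and the mean of the others was -1.80, -1.94 and -2.32 at 0, 1 and 24 h, or 4.06-fold lower on average. Replicate 3 was lower by 2.39-fold for E1, 2.18-fold for FT1a, 1.62-fold for FT4 and 1.54-fold for E1Lb. FT1b went the other way, with replicate 3 higher than the mean of the others by 0.45 to 2.32 on the log2 scale over the times. The difference of 2.32 was at 0 h, where replicate 1 was listed at 0. At 1 h replicate 3 (12 normalized counts) lay below replicate 1 (14), and no library held more than about 10.9 reads of FT1b. FT2a and FT5a, at a few reads per library, had replicate 3 above the mean of the others at 1 time and below it at 2.

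The 3 repressors did not differ by the same factor. E1La made up 35.0% to 51.3% of their summed normalized count in the 6 libraries of replicates 1 and 2 and 25.9% to 28.4% in the 3 of replicate 3, with no overlap. E1Lb made up 24.9% to 39.0% in the former and 45.2% to 48.2% in the latter, again with no overlap. The share of E1 overlapped, at 20.7% to 30.1% and 25.3% to 27.4%. These shares are ratios within a library and so do not change with its scaling. They may depend on how reads common to the 3 genes were split, which is not known. The 3 libraries of replicate 3 are 1 replicate number at 3 times and not separate observations. How often other sets of genes separate in this way was not computed. What libraries of 1 replicate number share is not given in the labels, so plant material, growth and library preparation cannot be told apart, and no test was made.

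**Figure D3:**
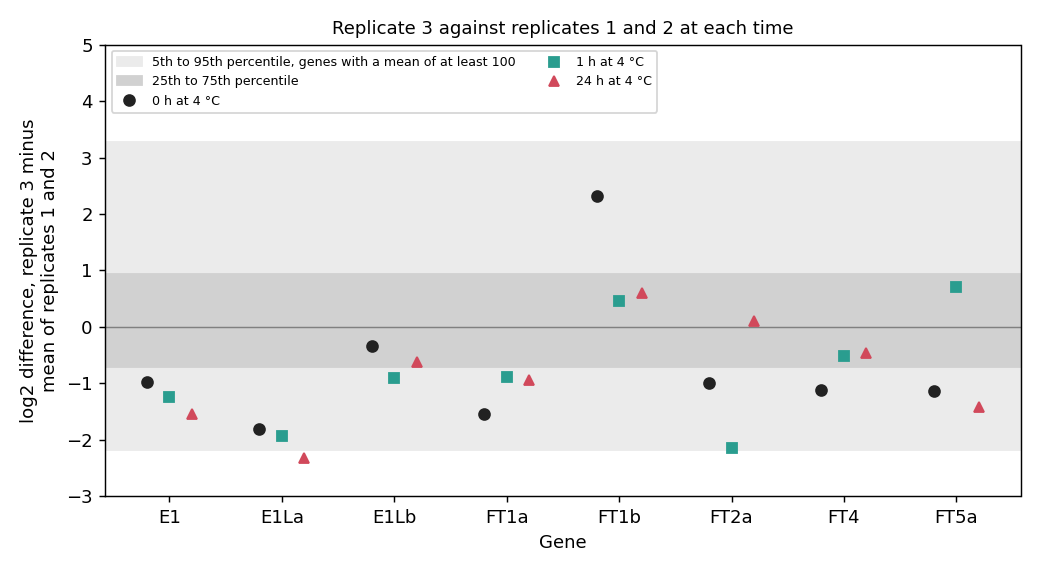
Log2 difference (y axis) of replicate 3 from replicates 1 and 2 (their mean) at 0, 1 and 24 h for each gene (x axis). Gray bands give the spread of that difference, averaged over the 3 times, over the genes that average 100 or more; E1, E1La, E1Lb, FT1a and FT4 lie below 0 at all 3 times and FT1b above 0.

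**Figure D4:**
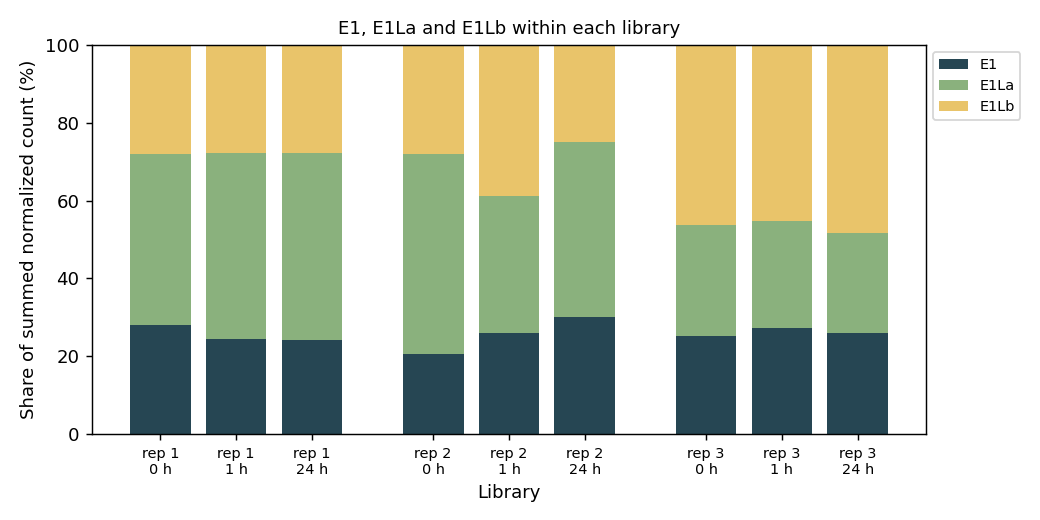
Share of E1, E1La and E1Lb in their summed normalized count (y axis, percent) in each of the 9 libraries (x axis). In the 3 libraries of replicate 3 the share of E1La lies between 25.9% and 28.4%, below that in the other 6, and that of E1Lb above.

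Other genes of the photoperiod pathway were taken as a list of 12 identifiers that the soybean literature assigns to 3 further FT family genes, 8 upstream genes of the phytochrome A, GIGANTEA, ELF3 and CONSTANS-like classes, and a TFL1-like gene. These assignments came from memory and could not be checked against the table, so no single identifier is given a name. This list, too, was drawn up with earlier results of these data known. Of the 12, 9 were in the table and 8, all upstream, reached the minimum mean of 10. At 1 h 7 of these 8 were lower in 3 of 3 replicates and at 24 h 6 of 8, beside 21.6% and 21.8% of all genes tested. The 8 include several genes of the same class, so they are not separate observations. The 1 h leaves were also taken later in the light period than the 0 h leaves, and the 2 effects cannot be told apart. With the block, 3 of 8 were called lower at 1 h and 4 of 8 at 24 h, and 0 were called higher (limma adjusted p under 0.05). Of all genes tested, 2.07% and 2.1% were called lower and 2.4% and 3.01% higher at these times. Without the block 0 of 8 were called, and 0 had an unadjusted p under 0.05. With the block, leaving out any of the 6 libraries compared left 0 calls at 1 h. At 24 h it left 1 call without replicate 3 of either time and 0 without any of the other 4 libraries.

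The changes in that list were small. Glyma18g51320, with the smallest adjusted p of the list at 1 h, had 19245, 22577 and 5427 normalized counts before chilling and 14613, 17472 and 3971 after 1 h. All 3 replicates went down, and the log2 change was -0.41 ± 0.08 (limma with the block, adjusted p = 0.0197, and 1 without it). The median log2 change of the 8 was -0.41 at 1 h and -0.33 at 24 h. Those of the 7 FT and E1 genes were -0.01 and 0.01; the difference between the lists was not tested. The 8 identifiers also differed between replicate numbers, from 4.19-fold lower in replicate 3 for Glyma18g51320 to 10.6-fold higher for Glyma13g07030.

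Genes of like pattern were sought for the 4 members with a mean of at least 100, by Pearson correlation of log2 values over the 9 libraries after the mean of each replicate number was taken out. E1La was nearest to Glyma07g08240 and Glyma12g03370, each with r of 0.995 after rounding, and 264 genes had an r above 0.9 with it. For E1 the nearest were Glyma04g06520 and Glyma06g13790 at 0.976 and 0.972, and for FT4 Glyma08g04420 and Glyma18g07890 at 0.995 and 0.985. For E1Lb they were Glyma19g32080 and Glyma19g40590 at 0.988 and 0.984. Values above 0.9 were reached by 64 genes for E1, 46 for E1Lb and 162 for FT4. How many genes would pass 0.9 by chance was not computed. Taking out the replicate means leaves fewer independent values than the 9 libraries, and the named genes are the highest of a large search. Whether they share regulation with the members was not tested. For 5 of the 8 named genes the correlation over the 9 libraries as they stand was below 0.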

How the data were processed

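Each score in the deposited table is a read count, normalized by the authors and rounded to a whole number, for 1 gene in 1 library. Cutadapt 1.2.1 and DESeq 1.12 are listed, without their roles, in the submitters' processing notes. The aligner, read counter, genome build and annotation are not given in the sources used here. Low scores fell on evenly spaced steps, which gave the worth of 1 read, and 83.3% to 95.4% of scores from 1 to 40 lay on whole steps. Part of these scores would lie there by rounding alone, more so with smaller steps, and that part was not computed. The others lay mostly midway, though with the smallest steps every whole number lies on a step or midway by rounding. Whole reads could therefore not be recovered, and count models were left out of the tests. Estimated reads served only for the counting SE and, rounded, for the intervals of the FT2a ratio.

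Scores were analysed as log2(score + 1), which understates changes of low genes. A mean of 10 over the 9 libraries was the minimum, met by 38985 of 49777 genes. Limma 3.58.1 in R 4.3.3 (trend and robust moderation, two-sided, all 9 libraries in 1 fit) was run without a replicate term, as the main model, and again with a term for the replicate number (the block). P-values were adjusted by Benjamini and Hochberg over all genes kept. The fit was tested on simulated data. The numbers pair the libraries: same-numbered libraries deviated together from their group means (r across genes 0.689 to 0.95), and 9 of 9 libraries correlated best with their own number. The pairing is read from the data, not from the labels. The log2 change is the same in both models, and its SE is given with the block unless stated.

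The rule for the members uses identifiers and no measured value, but members, lists and tests were chosen with earlier results of these data known. All members in the table are named, and like-pattern genes are the 2 of highest r per member. Of the table's identifiers 0 matched the RefSeq table, which lists genes with the names of 9 members and holds no sequences. No 2 libraries agreed within counting noise. Figures were made with Python 3.11.15 and matplotlib 3.10.9.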

Additional observations from a re-analysis of the deposited data

How the results depend on the processing

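No member was called in any alternative that tested it. In each of the 3 comparisons these were 17 without the replicate block and 18 with it for E1, E1La, E1Lb and FT4, single libraries and replicate numbers left out among them. FT1a, FT1b and FT5a were tested in 16 and 17, since a minimum mean of 100 drops them, and FT2a in 1 of each kind, the one with no minimum. Over all genes tested, adding the block raised the calls from 0 to 1742 at 1 h and from 0 to 1993 at 24 h; between 24 h and 1 h both counts were 0. For the 8 upstream identifiers, 0 were called without the block. With the replicate block 3 were called at 1 h and 4 at 24 h, and combined with the other pseudocounts, filters and scalings it gave 2 (equal totals, quantile normalization) or 3 at 1 h, and 3 (no filter) or 4 at 24 h. Leaving out libraries or replicate numbers left 0 to 3 at 1 h and 0 to 1 at 24 h, the block without trend and robust moderation left 0 at both times, and the block with only the 2 groups compared left 3 at 1 h and 0 at 24 h; the cause was not tested. Signs of the members' small changes were not stable. With equal totals E1 changed to 0.055 at 1 h and E1Lb to -0.033 at 24 h, with and without the replicate block. That scaling moved the median of all genes by 0.06 at 1 h, -0.04 at 24 h and -0.10 between 24 h and 1 h. Over the libraries and numbers left out, the log2 change at 1 h ran from -0.34 to 0.41 for E1, -0.85 to 0.40 for E1La, -0.26 to 0.35 for E1Lb, -0.83 to 0.0082 for FT1a, -0.79 to 1.72 for FT1b, -0.50 to 0.084 for FT4 and -0.31 to 0.82 for FT5a. At 24 h it ran from -0.16 to 0.68 for E1, -0.62 to 0.75 for E1La, -0.17 to 0.21 for E1Lb, -0.40 to 1.94 for FT1b and -0.42 to 0.17 for FT4, while FT1a kept its sign (-0.86 to -0.02), as did FT5a (0.80 to 1.65). Without the block these ranges mix in the difference between replicate numbers. The sign of FT5a at 24 h is a description only, since the gene reached the minimum mean only through its 24 h libraries. Depth limits FT1b, FT2a and FT5a, whose highest libraries hold 10.9, 5.13 and 19.7 estimated reads.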
